A study of Rattus norvegicus with 12 samples.

Results

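The genes described here encode subunits of oxidative phosphorylation, the mitochondrial machinery that oxidises NADH and succinate, passes the electrons to oxygen and uses the resulting proton gradient to make ATP. They were taken by name from 3 deposited RNA-seq tables of rat nucleus pulposus cells: names that begin with Nduf and a subunit letter, Sdha to Sdhd, Uqcr, Cox4 to Cox8, Atp5, and the mitochondrial Mt-nd, Mt-co, Mt-cyb and Mt-atp genes. Their values in a table had to average 10 normalised reads or more over its 6 libraries. This gave 84 of the 13546 genes listed, 11 of them encoded in mitochondrial DNA and 73 in the nucleus. All 84 stand in each table, and 83 passed the mean in the table of knockdown without TNF-a. Cox6b2 lay at that limit, with means of 11.5, 9.93 and 10.6 in the 3 tables, and Ndufs5 (4.47 and 3.83) and Ndufs6 (6.70 and 6.88) lay below it in the 2 tables that list them. The names also take in Atp5s, Atp5sl and Atp5hl1, which are not established core subunits of ATP synthase. No gene named Mt-nd1, Mt-nd3 or Cox7a1 is listed in the 3 tables.

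The cells were primary nucleus pulposus cells, from the hydrated centre of the spinal disc, expanded from explants of Wistar rat spines. Each of the 4 groups held 3 libraries. PLKO_CTR cells were transduced with a lentiviral control shRNA vector and left untreated, PLKO_TNF cells carried the same vector and received 50 ng/mL of the inflammatory cytokine TNF-a for the last 24 h, shTon_CTR cells carried an shRNA against TonEBP and were left untreated, and shTon_TNF cells carried that shRNA and received TNF-a. All cells were therefore lentivirally transduced and cultured. TonEBP, encoded by Nfat5, is a transcription factor of the response to high osmolarity, and the series asks how it bears on the response to TNF-a. The 3 libraries of a group carry the numbers 1 to 3 in their titles, called sets here. What a set stands for, a rat, a dish or a date, is not stated in the labels. The p-values therefore describe only how far these libraries spread, which may be technical. The sources used here give neither the sex nor the age of the rats.

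Electrons enter the chain at complex I (NADH dehydrogenase) or complex II (succinate dehydrogenase), move through ubiquinone to complex III (the cytochrome bc1 complex) and through cytochrome c to complex IV (cytochrome c oxidase), and complex V (ATP synthase) uses the proton gradient. Complexes I, III, IV and V are built from subunits of both genomes, while complex II is wholly nuclear. Mitochondrial DNA is transcribed as long precursor RNAs that are cut into single transcripts, whereas each nuclear subunit gene has its own promoter. Disc cells live in a tissue without blood vessels and are known for their reliance on glycolysis. By name, the members comprised 5 mitochondrial and 32 nuclear genes of complex I and 4 nuclear genes of complex II. For complex III there were 1 mitochondrial and 5 nuclear genes, and for complex IV 3 mitochondrial and 15 nuclear genes. A further 2 mitochondrial and 17 nuclear genes were named for complex V. Because names alone were used, Ndufa4, a complex IV subunit, and its relative Ndufa4l2 are counted with complex I throughout.

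The libraries held 7014925 to 18518389 reads on the 12899 genes common to the 3 tables. Nfat5 had 685, 1363 and 1818 normalised reads in sets 1 to 3 of PLKO_CTR, 642, 1092 and 483 in PLKO_TNF and 458, 457 and 288 in shTon_CTR. In the libraries labelled shTon_TNF it had 1695, 499.7 and 232, so set 1 of that group went against its label, and for the members described at length the knockdown with TNF-a is given below also without set 1, from a fit with 2 libraries a group. Its log2 fold change in limma was -1.61 (adjusted p = 0.0963) for the knockdown without and -0.26 (adjusted p = 0.799) with TNF-a, and with TNF-a but without set 1 it was -1.09 (adjusted p = 0.00941). Of 22 nucleus pulposus and notochord marker symbols, 7 (Car3, Cd24, Cdh2, Foxf1, Krt8, Lgals3 and Pax1) had a mean of at least 10. The other 15, among them Acan, Col2a1, Sox9, Krt18, Krt19 and Tbxt, were not found by symbol among the genes common to the 3 tables. T and Tbxt, and Ca12 and Car12, are alternative names in that list, so the 22 symbols stand for fewer genes. Skeletal muscle markers, by contrast, were present at 25 of 29 symbols, and their summed level spanned 49616 to 111761 normalised reads in set 1, 19671 to 35210.4 in set 2 and 470.4 to 655 in set 3. Macrophage markers were present at 2 of 10 symbols and endothelial markers at 2 of 9.

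Reads on the 73 nuclear members made up 0.642% to 1.09% of a library's reads, and reads on the 11 mitochondrial members 0.323% to 1.11%. Mt-co1, the catalytic core of complex IV, took 71.5% to 87.2% of the mitochondrial reads. The mitochondrial share was highest in set 2 of every group, where it was 0.953% in PLKO_CTR, 1.1% in PLKO_TNF, 0.969% in shTon_CTR and 1.11% in shTon_TNF. The nuclear share was lowest in set 2 of every group. Set 3 of shTon_TNF had the highest nuclear share, and set 1 of PLKO_CTR had the lowest mitochondrial share. In whole cultures, fewer cells of a type and less RNA per cell cannot be told apart. The sources used here do not say how reads with several mapping positions were counted, nor whether strand was used. The mitochondrial genes have near-identical copies in nuclear DNA, and Mt-nd6 is transcribed from the strand opposite to the other mitochondrial members, so their values carry this uncertainty.

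**Figure D1:**
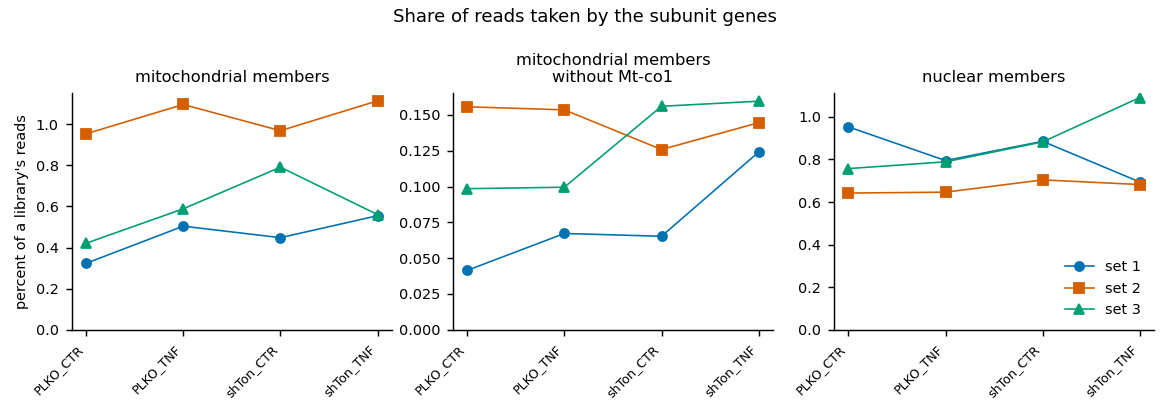
Share of each library's reads (percent, y axis) that fell on the 11 mitochondrial members, on those without Mt-co1, and on the 73 nuclear members, by group (x axis); each point is 1 library and lines join libraries of a set. Set 2 has the highest mitochondrial share in each group, and without Mt-co1 the lowest share is that of set 1 of PLKO_CTR (0.0415%).

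With TNF-a a single subunit gene of either genome passed the test, in both vectors. In PLKO cells 1 of 73 nuclear members and 0 of 11 mitochondrial members passed an adjusted p under 0.05 in limma with the set as a term, where 9.62% of the 12373 genes tested did (4.97% higher and 4.65% lower). In shTon cells it was again 1 of 73 and 0 of 11, against 3.28% of 12339 genes (1.95% higher). The gene was Atp5g1 in both, and it was higher with TNF-a. Counts at an unadjusted p under 0.05 were 5 nuclear and 2 mitochondrial members in PLKO cells, where 29% of all genes passed that threshold, and 3 and 6 in shTon cells, where 18.8% did. edgeR called Atp5g1 alone in both. DESeq2 called Atp5g1 in both, with Cox4i2 and Mt-co1 in PLKO cells and with Mt-nd2 (adjusted p = 0.00903) and Mt-nd4l (0.0497) in shTon cells.

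Few nuclear members had a large difference with TNF-a. Their median log2 fold change with TNF-a was -0.02 in PLKO cells and -0.01 in shTon cells, beside -0.01 and -0.01 over all genes tested. An absolute log2 fold change of at least 0.5 was reached by 2 of 73 (2.74%) in PLKO cells, beside 20.6% of all genes, and by 2 of 73 (2.74%) in shTon cells, beside 17.2%. By complex, the median in PLKO cells was -0.09 over the 32 nuclear genes of complex I, -0.16 over the 4 of complex II, 0.10 over the 5 of complex III, -0.02 over the 15 of complex IV and 0.02 over the 17 named for complex V. All 4 complex II genes were lower by value and all 5 nuclear complex III genes higher by value, and none of them passed the test. In set 1 most nuclear members were lower by value with TNF-a, 67 of 73 in PLKO cells and 66 of 73 in shTon cells, with median log2 ratios of -0.16 and -0.26. In set 3 most were higher by value, 49 and 64 of 73, with medians of 0.08 and 0.33. Without set 1, 59 of 71 nuclear members tested were higher by value with TNF-a in shTon cells, with a median of 0.17, beside -0.00 over all genes. The 11 mitochondrial members had a median with TNF-a of 0.18 in PLKO cells and 0.56 in shTon cells, with 9 of 11 higher by value in each. An absolute log2 fold change of at least 0.5 was reached by 3 and 6 of them. Median log2 ratios in sets 1 to 3 were 0.83, 0.08 and -0.29 in PLKO cells and 1.26, 0.26 and 0.10 in shTon cells. Without set 1 the median in shTon cells was 0.18. The summed level of the 7 nucleus pulposus markers was 7519 to 12931 in PLKO_CTR, 3650.3 to 8864 in PLKO_TNF, 6779 to 16772 in shTon_CTR and 4394 to 10995 in shTon_TNF. TNF-a lowered Krt8 and Lgals3 among them in both vectors and Pax1 in PLKO cells in limma, and the part of this in the members' values was not tested.

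**Figure D2:**
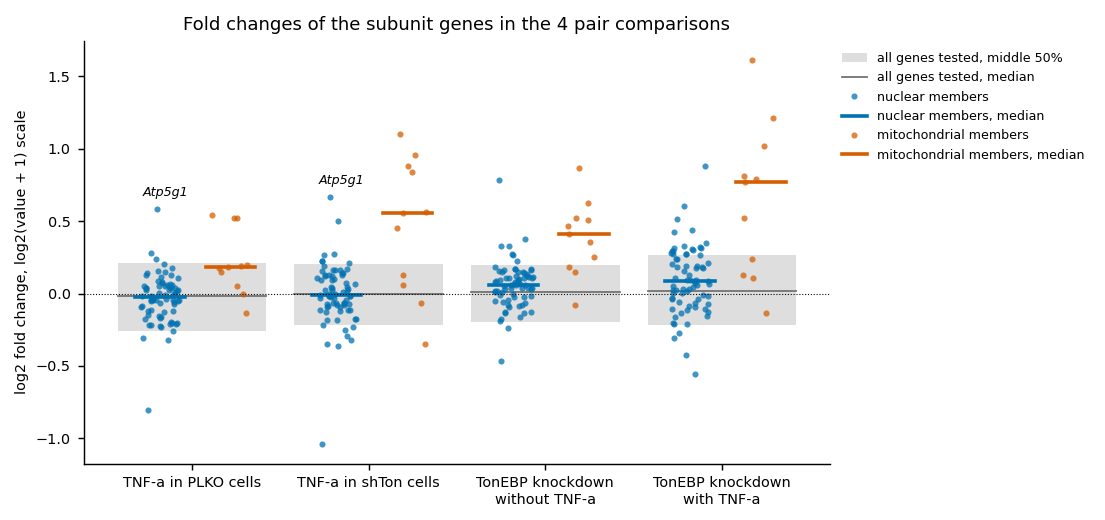
Log2 fold changes (y axis, log2(value + 1) scale) of the nuclear and mitochondrial members in the 4 pair comparisons (x axis); each point is 1 gene, coloured bars are the members' medians, and the grey band and line are the middle 50% and the median of all genes tested. The nuclear members lie mostly inside the band, and Atp5g1 is named where it passed the test; the mitochondrial members have medians of 0.18, 0.56, 0.41 and 0.77 from left to right, and none passed.

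Atp5g1, 1 of 3 nuclear genes that encode subunit c, the ring of ATP synthase that turns as protons pass, was the member that TNF-a raised. In sets 1 to 3 it had 766, 586 and 582 in PLKO_CTR, 961, 955 and 959 in PLKO_TNF, 681, 727 and 669 in shTon_CTR and 945, 1126 and 1251 in shTon_TNF, in normalised reads (reads divided by a size factor of the library), the unit of all values by library below, which are given in the order of the sets. Every library with TNF-a lay above every untreated library, so the groups did not overlap within either vector. How many of all genes separate in such a way was not counted, here or for the genes below. The group means were 644 ± 105 and 958 ± 2.8 in PLKO cells and 692 ± 30.5 and 1107 ± 153 in shTon cells (SD, n = 3). In limma the log2 fold change was 0.58 (SE 0.12, adjusted p = 0.0297) in PLKO cells and 0.67 (SE 0.13, adjusted p = 0.0496) in shTon cells. The difference between these 2 effects was 0.08 (SE 0.21, adjusted p = 0.999) in limma, with a 95% interval of -0.37 to 0.54. Atp5g1 was higher with TNF-a in 6 of 6 set pairs, as were 12.3% of 12310 genes. Leaving out set 2 ended its call in limma in PLKO cells (adjusted p = 0.115) and in shTon cells (0.221), as did leaving out set 3 (0.0556 and 0.0921). Without the set as a term the adjusted p in limma was 0.575 and 0.517, without the mean-variance trend 0.109 and 0.128, and in shTon cells with a pseudocount of 0.1 it was 0.0596. Its knockdown differences were 0.11 (SE 0.14, adjusted p = 0.725) without and 0.20 (SE 0.16, adjusted p = 0.554) with TNF-a in limma.

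The other subunit c genes encode the same mature protein with different import sequences, and neither passed the test with TNF-a. Atp5g2 had 1345, 1109 and 1546 in PLKO_CTR, 1225, 1141 and 1509 in PLKO_TNF, 1453, 1508 and 2097 in shTon_CTR and 1259, 1333 and 2401 in shTon_TNF, and its libraries with and without TNF-a overlapped. Its log2 fold change with TNF-a in limma was -0.04 (SE 0.09, adjusted p = 0.795) in PLKO cells, with an interval of -0.27 to 0.18, and -0.06 (SE 0.13, adjusted p = 0.845) in shTon cells. Atp5g2 was higher with the knockdown in 6 of 6 set pairs, without passing the test: its difference in limma was 0.33 (SE 0.12, adjusted p = 0.247) without and 0.32 (SE 0.17, adjusted p = 0.399) with TNF-a. Atp5g3 had 1939, 1455 and 1179 in PLKO_CTR, 2003, 1649 and 1648 in PLKO_TNF, 1706, 1356 and 1383 in shTon_CTR and 1474, 1479 and 2194 in shTon_TNF, again with overlapping groups, and a log2 fold change with TNF-a of 0.24 (SE 0.11, adjusted p = 0.223) in PLKO cells and 0.19 (SE 0.18, adjusted p = 0.606) in shTon cells in limma. Among the 3 genes the differences among sets also varied: Atp5g2 was highest in set 3 (adjusted p = 0.0068 in limma), and Atp5g1 had an adjusted p of 0.996.

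**Figure D3:**
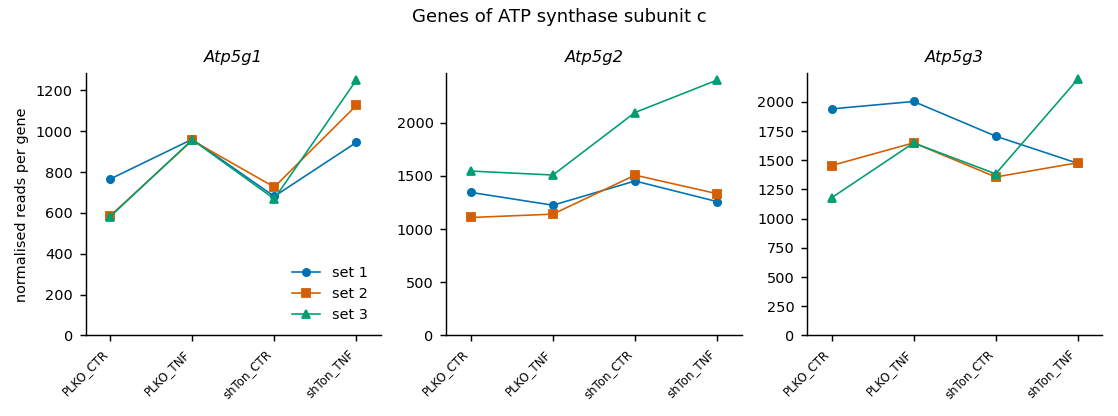
Normalised reads (y axis, from 0) of Atp5g1, Atp5g2 and Atp5g3 by group (x axis); each point is 1 library and lines join libraries of a set. For Atp5g1 the 6 libraries with TNF-a lie between 945 and 1251, above the 6 untreated libraries, and for the other 2 genes libraries with and without TNF-a overlap.

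The promoters of these 3 genes are shown because 1 of 3 genes for the same subunit passed the test with TNF-a. The sequences are the 250 bases before the annotated start, from RefSeq on build GRCr8, read along each gene's own strand, with matches to the motifs searched in capitals. Atp5g1 (Atp5mc1 in RefSeq) lies at chr10:81523346-81523595, Atp5g2 (Atp5mc2) at chr7:135678219-135678468 and Atp5g3 (Atp5mc3) at chr3:79220665-79220914, all on the minus strand.
Atp5g1: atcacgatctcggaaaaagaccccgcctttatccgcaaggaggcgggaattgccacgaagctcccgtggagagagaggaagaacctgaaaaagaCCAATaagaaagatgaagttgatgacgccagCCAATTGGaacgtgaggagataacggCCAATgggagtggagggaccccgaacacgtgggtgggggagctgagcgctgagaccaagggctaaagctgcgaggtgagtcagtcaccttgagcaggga
Atp5g2: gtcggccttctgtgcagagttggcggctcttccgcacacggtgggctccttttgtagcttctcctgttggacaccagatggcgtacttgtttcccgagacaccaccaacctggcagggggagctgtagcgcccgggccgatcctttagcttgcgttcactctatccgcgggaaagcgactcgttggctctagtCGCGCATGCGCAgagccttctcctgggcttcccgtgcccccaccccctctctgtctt
Atp5g3: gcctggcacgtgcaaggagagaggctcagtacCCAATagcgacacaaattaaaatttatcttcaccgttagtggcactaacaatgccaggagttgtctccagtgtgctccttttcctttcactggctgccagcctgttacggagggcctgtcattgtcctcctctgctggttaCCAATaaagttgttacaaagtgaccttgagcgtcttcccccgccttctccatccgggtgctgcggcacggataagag
The capitals mark CCAAT in Atp5g1, at 4 positions of which an opposing pair overlaps within CCAATTGG, and at 2 positions in Atp5g3, and the consensus motif of NRF1, a regulator of nuclear genes for mitochondrial proteins, in Atp5g2, beginning 57 bases before the start. Of the 73 nuclear members, 64 matched a RefSeq promoter, 50 by symbol and 14 by an older name. Both strands were searched. The NRF1 consensus was in 4.69% of the 64 and in 1.06% of all 33469 promoters of the same length. The ETS core CCGGAAG was in 29.7% and 7.27%, CCAAT in 31.2% and 34%, and TGGAAA, the core of the TonEBP motif, in 7.81% and 19.7%. The NF-kB consensus was in 4.69% of the 64 and in 6.33% of all, and in none of the 3 printed. These are matches of letters only, and no match says only that these letters are not in this window.

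In complex II, Sdha, the flavoprotein that oxidises succinate, was lower with TNF-a in 6 of 6 set pairs. It is named after its values were seen, as are Atp5a1, Ndufv3 and Uqcrc2 below. Sdha had 2983, 2328 and 2829.6 in PLKO_CTR, 2598, 1878 and 2358 in PLKO_TNF, 3214, 2592 and 2811 in shTon_CTR and 2359, 2334 and 2000.1 in shTon_TNF. Within each set the treated library was the lower one, while across sets the groups overlapped, and the log2 fold change of -0.26 (SE 0.09, adjusted p = 0.124) in PLKO cells and -0.36 (SE 0.13, adjusted p = 0.197) in shTon cells did not pass in limma. Atp5a1, the alpha subunit of the catalytic head of ATP synthase, was also lower in 6 of 6 pairs, with log2 fold changes of -0.06 and -0.12. In total 4 of 73 nuclear members (Ndufv3, Sdha, Cox4i2 and Atp5a1) were lower with TNF-a in every set pair, where 13.9% of all genes were.

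Cox4i2, the form of subunit 4 of cytochrome c oxidase known from lung and from cells under low oxygen, had the largest fall by value with TNF-a among the members in PLKO cells. Its values in sets 1 to 3 were 112, 248 and 229 in PLKO_CTR, 74.7, 91.8 and 174 in PLKO_TNF, 143, 230.3 and 249 in shTon_CTR and 107, 185 and 212 in shTon_TNF. The treated library was lower in each set, by most in set 2, and the groups overlapped across sets. The log2 fold change in limma was -0.80 (SE 0.22, adjusted p = 0.0672) in PLKO cells and -0.32 (SE 0.15, adjusted p = 0.315) in shTon cells. In PLKO cells it passed in DESeq2 (adjusted p = 0.0352), in limma over all 12 libraries (0.0413) and in limma without set 3 (0.0202). It did not pass in edgeR (adjusted p = 0.0678), nor in limma without set 1 (0.0917) or without set 2, where the log2 fold change was -0.49 (adjusted p = 0.287). Cox4i1, the broadly expressed form, had 2921, 2678 and 2999 in PLKO_CTR, 2652, 2687 and 2986 in PLKO_TNF, 3008, 3033 and 3238 in shTon_CTR and 2633, 2988 and 4649.7 in shTon_TNF, and a log2 fold change of -0.05 (SE 0.10, adjusted p = 0.781) in PLKO cells in limma. The TNF-a effect on Cox4i2 in shTon cells less that in PLKO cells was 0.48 (SE 0.28, adjusted p = 0.999) in limma.

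Ndufv3, a small accessory subunit of the NADH-binding arm of complex I, was lower in every set pair of both contrasts. It had 464, 532 and 488 in PLKO_CTR, 408, 415 and 363 in PLKO_TNF, 420.1, 363 and 303 in shTon_CTR and 348, 325 and 221 in shTon_TNF. With TNF-a its log2 fold change was -0.32 (SE 0.11, adjusted p = 0.108) in PLKO cells and -0.30 (SE 0.14, adjusted p = 0.315) in shTon cells in limma. With the knockdown it was -0.46 (SE 0.15, adjusted p = 0.191) without and -0.43 (SE 0.18, adjusted p = 0.288) with TNF-a in limma, so none of the 4 passed. The lowest of all 12 values was that of shTon_TNF set 3 and the highest that of PLKO_CTR set 2.

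The knockdown of TonEBP changed no subunit gene past the threshold. Without TNF-a 0 of 72 nuclear and 0 of 11 mitochondrial members passed in limma, where 0.113% of 12383 genes did (0.0162% higher), and with TNF-a 0 of 73 and 0 of 11, where 0.254% of 12213 did. At an unadjusted p under 0.05 there were 2 nuclear and 0 mitochondrial members without TNF-a and 5 and 5 with it, where 17% and 17% of all genes passed that threshold. edgeR called none of the members in either comparison. DESeq2 called none without TNF-a and 1, Mt-nd2, with it. The median log2 fold change of the nuclear members was 0.06 without and 0.08 with TNF-a, beside 0.01 and 0.02 over all genes. With TNF-a that median differed among sets, at -0.15 in set 1, 0.05 in set 2 and 0.41 in set 3. In set 1, 55 of 73 nuclear members were lower in the shTon_TNF library, and in set 3 63 of 73 were higher. Without set 1 the median with TNF-a was 0.20, with 59 of 71 nuclear members tested higher by value, beside 0.01 over all genes.

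By complex, the knockdown medians of the nuclear members lay between 0.05 (complex I) and 0.13 (complex III) without TNF-a and between 0.06 (complex V) and 0.09 (complex IV) with it. Without set 1 the latter lay between 0.13 (complex V) and 0.30 (complex IV). In the same direction in 6 of 6 set pairs were 3 nuclear members that were higher (Cox6a2, Cox8a and Atp5g2) and 2 that were lower (Ndufv3 and Uqcrc2). Over all genes 10.7% were higher and 11.2% lower in that way. Uqcrc2, a core subunit of complex III, differed by -0.16 (SE 0.11, adjusted p = 0.497) without and -0.27 (SE 0.16, adjusted p = 0.429) with TNF-a in limma. Cox8a, the broadly expressed form of subunit 8 of complex IV, had 493, 620.5 and 495 in PLKO_CTR, 423, 464 and 475 in PLKO_TNF, 623, 634 and 673 in shTon_CTR and 506, 551 and 809 in shTon_TNF. Its knockdown difference was 0.27 (SE 0.13, adjusted p = 0.359) without and 0.43 (SE 0.18, adjusted p = 0.277) with TNF-a in limma. Under TNF-a but without set 1 limma gave 0.51 for Cox8a, -0.24 for Uqcrc2, -0.53 for Ndufv3, 0.45 for Atp5g2 and 0.31 for Atp5g1, none past the threshold.

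The mitochondrial members were mostly higher by value with the knockdown, but none passed the test. Their median log2 fold change was 0.41 without TNF-a, with 10 of 11 higher by value, and 0.77 with it, again with 10 of 11 higher by value. The larger median did not hold for every member. In the interaction fit in limma 6 of 11 had a positive value, a higher knockdown difference with TNF-a, and 5 a negative value. An absolute difference of at least 0.5 was reached by 4 of 11 without TNF-a, beside 16.3% of all genes, and by 7 of 11 with it, beside 20.6%. The sets went different ways. Without TNF-a the median log2 ratio was 0.82 in set 1, -0.34 in set 2 and 0.69 in set 3, and with TNF-a it was 1.18, -0.09 and 0.80. In set 2, whose libraries had the highest mitochondrial shares, 1 of 11 members were higher by value without and 3 of 11 with TNF-a. Set 1 with TNF-a is the pair whose shTon library had the Nfat5 level that went against its label. Without set 1 the median under TNF-a was 0.25, with 9 of 11 higher by value and 4 of 11 at an absolute difference of at least 0.5, beside 25.8% of all genes.

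Among the complex I members, Mt-nd2, a proton-pumping core subunit, had the largest difference with the knockdown under TNF-a. It had 48.3, 162 and 174 in PLKO_CTR, 59.3, 189 and 92.6 in PLKO_TNF, 92.3, 158 and 281 in shTon_CTR and 273, 239.6 and 462 in shTon_TNF. All 3 shTon_TNF libraries lay above all 3 PLKO_TNF libraries, a separation whose share over all genes was not counted. The log2 fold change in limma was 1.61 (SE 0.37, adjusted p = 0.111), and it passed in DESeq2 (1.63, adjusted p = 0.00126), in limma over all 12 libraries (adjusted p = 0.0457) and in limma without set 1, where it was 1.32 (adjusted p = 0.0329). Without TNF-a the difference was 0.52 (SE 0.22, adjusted p = 0.296) in limma, with overlapping groups. TNF-a itself gave -0.13 (SE 0.26, adjusted p = 0.772) in PLKO cells and 0.95 (SE 0.22, adjusted p = 0.0667) in shTon cells in limma. The interaction was 1.09 (SE 0.53, adjusted p = 0.999) in limma.

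Mt-nd4 and Mt-nd4l, neighbouring core subunit genes of complex I that share 1 transcript, had like patterns over the libraries. For Mt-nd4 the values in sets 1 to 3 were 104, 607 and 504 in PLKO_CTR, 185, 644 and 298 in PLKO_TNF, 205, 463 and 491 in shTon_CTR and 945, 585 and 533 in shTon_TNF. For Mt-nd4l they were 21.3, 80.1 and 93.6 in PLKO_CTR, 38.9, 125 and 45.6 in PLKO_TNF, 37.7, 73.2 and 100.2 in shTon_CTR and 171, 136 and 121 in shTon_TNF. In both genes set 1 of shTon_TNF was the highest of all 12 libraries and the other 3 set 1 libraries were the lowest. With the knockdown under TNF-a the log2 fold change was 1.02 (SE 0.39, adjusted p = 0.249) for Mt-nd4 and 1.21 (SE 0.37, adjusted p = 0.178) for Mt-nd4l in limma, and with TNF-a in shTon cells it was 0.88 (SE 0.37, adjusted p = 0.263) and 1.10 (SE 0.34, adjusted p = 0.147). Without set 1 the knockdown difference under TNF-a was 0.35 (adjusted p = 0.52) for Mt-nd4 and 0.76 (adjusted p = 0.254) for Mt-nd4l in limma, and the TNF-a difference in shTon cells was 0.23 and 0.58. Mt-nd5 had 323, 1774 and 940.4 in PLKO_CTR, 619, 1364 and 946 in PLKO_TNF, 683, 1219 and 1373 in shTon_CTR and 1197, 1282 and 846 in shTon_TNF. Mt-nd6, on the other strand, had 22.6, 204 and 60.3 in PLKO_CTR, 75.3, 143 and 38.0 in PLKO_TNF, 82.0, 106 and 124 in shTon_CTR and 90.7, 107 and 53.0 in shTon_TNF. In neither did the knockdown groups separate, and their differences under TNF-a were 0.24 and 0.11 on the log2 scale, and -0.12 and 0.03 without set 1.

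Mt-cyb, the cytochrome b core of complex III, had a pattern near that of Mt-nd4. It had 312, 982 and 803 in PLKO_CTR, 414, 1163 and 508 in PLKO_TNF, 398, 640.5 and 821 in shTon_CTR and 1444, 939.6 and 886 in shTon_TNF, with the highest value again in set 1 of shTon_TNF. Its knockdown difference was -0.08 (SE 0.19, adjusted p = 0.864) without and 0.77 (SE 0.34, adjusted p = 0.3) with TNF-a in limma. Under TNF-a but without set 1 it was 0.25 (adjusted p = 0.682) in limma. Across the 12 libraries the log2 values of Mt-cyb and Mt-nd4 had a Pearson r of 0.974, the highest of the 55 pairs of mitochondrial members. The lowest, 0.345, was that of Mt-nd2 and Mt-co1, and the median of the 55 was 0.818. These points share libraries and their depth, so they are a description.

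Mt-co1, Mt-co2 and Mt-co3, the core subunits of cytochrome c oxidase, had a median knockdown difference of 0.13 on the log2 scale under TNF-a, beside 1.02 for the 5 complex I genes. Without set 1 these medians were 0.16 and 0.35, and the gap was not tested. Mt-co1 had 29844, 99825 and 35920.3 in PLKO_CTR, 49962, 120240.0 and 55215 in PLKO_TNF, 41459, 101545 and 67996 in shTon_CTR and 50127, 117308 and 42598 in shTon_TNF. Set 2 was highest in each group, and the groups overlapped. Its knockdown difference was 0.47 (SE 0.25, adjusted p = 0.382) without and -0.13 (SE 0.29, adjusted p = 0.851) with TNF-a in limma, with an interval of -0.81 to 0.54 for the latter, which was -0.21 without set 1. With TNF-a it was higher in each set of PLKO cells, by 0.54 (SE 0.21, adjusted p = 0.139) in limma, and passed in DESeq2 (adjusted p = 0.00785). In shTon cells its difference with TNF-a was -0.06 (SE 0.25, adjusted p = 0.917) in limma. Mt-co2 had 1771, 8241 and 2838 in PLKO_CTR, 3261, 8044 and 4679.9 in PLKO_TNF, 2749, 6618 and 6614 in shTon_CTR and 3349, 7171 and 6580.1 in shTon_TNF, and a difference with TNF-a of 0.52 (SE 0.18, adjusted p = 0.111) in PLKO cells in limma. Without set 2 that call passed (adjusted p = 0.0147 in limma). In shTon cells the difference of Mt-co2 with TNF-a was 0.13 (SE 0.13, adjusted p = 0.633) in limma. Mt-co3 had 1450.3, 5996 and 4678 in PLKO_CTR, 2436, 6577 and 3818 in PLKO_TNF, 2217, 4733 and 5349 in shTon_CTR and 5518, 5685 and 5735 in shTon_TNF, and its knockdown difference under TNF-a was 0.52 (SE 0.26, adjusted p = 0.352) in limma. Without set 1 it was 0.19 (adjusted p = 0.789) for Mt-co3 and 0.16 for Mt-co2 in limma.

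Mt-atp6 and Mt-atp8, the membrane subunits of ATP synthase that share 1 transcript, were higher by value with the knockdown. Mt-atp6 had 323, 1295 and 831 in PLKO_CTR, 559, 1224 and 742 in PLKO_TNF, 571, 1047 and 1374 in shTon_CTR and 1370.0, 1223 and 1559 in shTon_TNF. Mt-atp8 had 17.0, 131 and 41.6 in PLKO_CTR, 38.9, 108 and 67.2 in PLKO_TNF, 33.0, 101 and 177 in shTon_CTR and 73.6, 125 and 168 in shTon_TNF. In sets 1 and 3 the shTon library was the higher one for both genes at each treatment. In set 2 the shTon library was lower for both genes without TNF-a. With TNF-a it was near equal for Mt-atp6 and higher for Mt-atp8 (125 beside 108), so Mt-atp8 was higher in each set under TNF-a. Under TNF-a the knockdown difference was 0.79 (SE 0.25, adjusted p = 0.187) for Mt-atp6 and 0.81 (SE 0.28, adjusted p = 0.213) for Mt-atp8 in limma, and without set 1 it was 0.53 (adjusted p = 0.268) and 0.76 (adjusted p = 0.225).

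**Figure D4:**
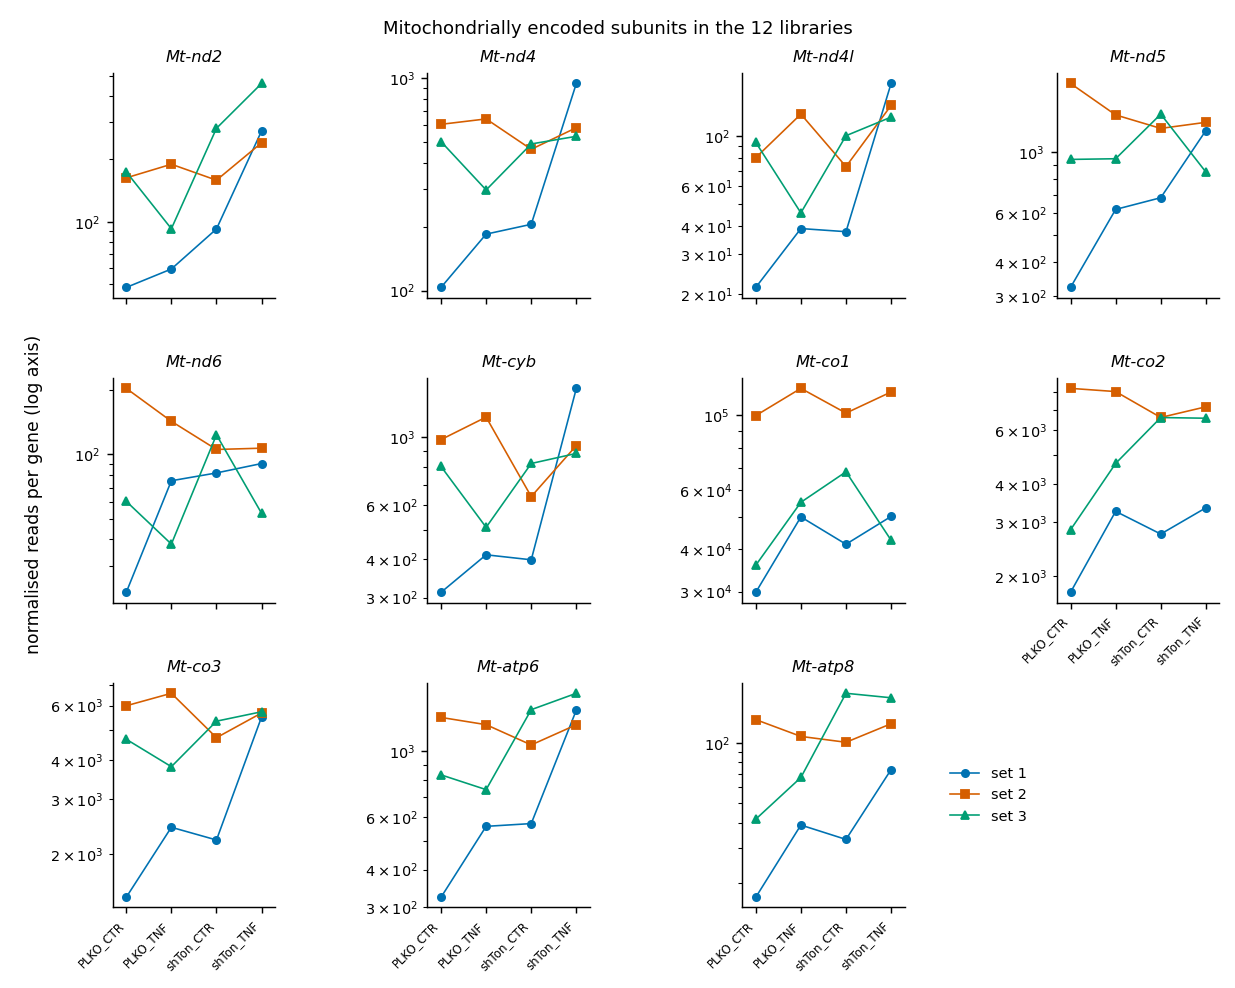
Normalised reads (y axis, log scale, its range set for each gene) of the 11 mitochondrially encoded members by group (x axis); each point is 1 library and lines join libraries of a set. Set 1 is low in the first 3 groups and highest of all libraries in shTon_TNF for Mt-nd4, Mt-nd4l and Mt-cyb, while Mt-co1 is highest in set 2 of every group.

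Which of these counts rest on 1 set was checked by leaving each out. Under TNF-a, limma called 5 mitochondrial members for the knockdown without set 2 (Mt-nd2, Mt-nd4, Mt-nd4l, Mt-cyb and Mt-atp6, all higher), where 1.29% of all genes were called, 1 without set 1 (Mt-nd2), where 4.04% were, and 0 without set 3, where 0.262% were. No nuclear member was called for the knockdown when any set was left out. For TNF-a in shTon cells it called 2 without set 2 (Mt-nd2 and Mt-nd4, both higher), where 2.96% of all genes were called, 1 without set 1 (Mt-nd2), where 9.05% were, and 0 without set 3, where 2.57% were. The interaction of TNF-a and knockdown was called for none of the 84 members and for 0 of 12310 genes in limma, edgeR and DESeq2, and 219 genes but 0 members had an unadjusted p under 0.05 in limma. For no member was the response to TNF-a thus shown to differ between PLKO and shTon cells.

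The authors' deposited tables hold adjusted p-values under 0.05 for 3 members with TNF-a in PLKO cells, where 10% of 13373 genes passed. In the authors' deposited table these are Atp5g1 (log2 fold change 0.54, adjusted p = 0.0103), Mt-co1 (0.51, 0.00936) and Cox4i2 (-0.68, 0.0297). For the knockdown with TNF-a the authors' deposited table holds 1, Mt-nd2 (1.14, adjusted p = 0.00191), where 2.82% of 13176 genes passed. Without TNF-a the authors' deposited table holds 0 members for the knockdown, where 3.05% of 13305 genes passed. The authors' fold changes are drawn toward 0 by a prior, as a refit showed, and are not the same measure as those of limma. In each table the authors' adjusted p was listed as NA for 3 nuclear members.

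More members were called for the sets, in a test on all 12 libraries, than for TNF-a or the knockdown, each tested on 6 libraries. These counts are therefore not of like power. In limma 15 of 73 nuclear members (20.5%) and 7 of 11 mitochondrial members differed among the 3 sets. The nuclear count includes Cox8b and Cox6b2, which had a mean of at least 10 only with set 1, their highest set, included. The threshold was an adjusted p under 0.05, which 45.4% of 12310 genes passed, a larger share than that of the nuclear members. Of the 7 mitochondrial members, 6 (Mt-co1, Mt-co2, Mt-co3, Mt-atp6, Mt-atp8 and Mt-nd5) were highest in set 2 and lowest in set 1, and Mt-nd2 was highest in set 3 and lowest in set 1. Without shTon_TNF the counts were 10 mitochondrial and 21 nuclear members, without shTon_CTR 3 and 8, without PLKO_TNF 4 and 8, and without PLKO_CTR 3 and 9. The largest difference among set means was 0.80 to 1.66 on the log2 scale for the mitochondrial members, with a median of 1.16, beside 0.29 for the nuclear members and 0.49 over all genes. It reached 0.5 in 11 of 11 mitochondrial and 10 of 73 nuclear members, where 48.7% of all genes did.

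Cox6a2 and Cox8b, the heart and skeletal muscle forms of 2 subunits of cytochrome c oxidase, differed most among sets. Cox6a2 had 186, 58.2 and 2.1 in PLKO_CTR, 150.0, 45.9 and 3.8 in PLKO_TNF, 251, 81.6 and 2.6 in shTon_CTR and 255, 61.9 and 12.1 in shTon_TNF. Cox8b had 40.8, 12.8 and 0 in PLKO_CTR, 41.4, 8.5 and 0 in PLKO_TNF, 61.2, 19.2 and 1.3 in shTon_CTR and 46.9, 5.9 and 0 in shTon_TNF. In each group set 1 was highest and set 3 lowest for both, the order of the summed skeletal muscle markers given above. Set means of that sum were 79921, 24656 and 578 in sets 1 to 3. The summed nucleus pulposus markers had set means of 12391, 8123 and 5586, the same order with a much smaller fall. The summed macrophage markers (280, 455 and 347) and endothelial markers (36.3, 65.1 and 29.4) were highest in set 2. In set 3, 3 of the 4 Cox8b values are 0 reads, and a count of 0 allows up to 3 reads, or 3.1, 3.8 and 4.5 normalised reads. The adjusted p among sets in limma was 2.51e-06 for Cox6a2 and 2.05e-06 for Cox8b. Cox8b had a mean of at least 10 only through set 1, so its call among sets is not independent of that filter. The part of muscle transcripts in other values was not tested.

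The broadly expressed partners of these muscle forms did not pass among sets. Cox6a1 had 1924, 2019 and 1809 in PLKO_CTR, 1783, 1988 and 1912 in PLKO_TNF, 1965, 1978 and 2173 in shTon_CTR and 1724, 2069 and 2592 in shTon_TNF, with overlapping sets, and an adjusted p among sets of 0.383 in limma. For Cox8a, whose values are given above, it was 0.332. The knockdown difference of Cox6a2 was 0.37 (SE 0.25, adjusted p = 0.487) without and 0.88 (SE 0.31, adjusted p = 0.226) with TNF-a in limma, and 0.93 (adjusted p = 0.376) with TNF-a but without set 1. The 25 skeletal muscle markers had median knockdown differences of 0.38 and 0.34, with 18 and 20 of 25 higher by value and none past the threshold in limma, and their part in the Cox6a2 difference was not tested. With TNF-a the same markers had a median of -0.28 in PLKO cells and -0.28 in shTon cells, and Myod1 passed in limma, lower in both. Cox8b differed by -0.18 (SE 0.41, adjusted p = 0.813) and -1.04 (SE 0.42, adjusted p = 0.247) there in limma, fitted values that depend on the pseudocount because set 3 holds libraries at 0.

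The promoters of the muscle forms are shown because both transcripts had the same order of sets in every group. In RefSeq (GRCr8) the 250 bases before the start lie at chr1:192219717-192219966 for Cox6a2 and chr1:205408274-205408523 for Cox8b, both on the minus strand, written along the gene.
Cox6a2: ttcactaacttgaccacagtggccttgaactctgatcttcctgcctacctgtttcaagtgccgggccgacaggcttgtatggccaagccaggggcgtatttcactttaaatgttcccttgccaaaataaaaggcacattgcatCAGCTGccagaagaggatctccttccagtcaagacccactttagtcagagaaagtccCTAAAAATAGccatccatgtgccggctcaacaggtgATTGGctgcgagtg
Cox8b: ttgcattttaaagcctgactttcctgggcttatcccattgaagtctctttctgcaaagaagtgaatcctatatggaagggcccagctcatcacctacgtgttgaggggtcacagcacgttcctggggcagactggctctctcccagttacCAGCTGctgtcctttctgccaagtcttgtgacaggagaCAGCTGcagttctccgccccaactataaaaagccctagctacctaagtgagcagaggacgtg
The capitals mark the muscle E-box CAGCTG in both, 107 bases before the start in Cox6a2 and 100 and 62 bases before it in Cox8b, the consensus motif of MEF2, a muscle transcription factor, 50 bases before the start in Cox6a2, and a CCAAT read on the other strand 14 bases before it. CAGCTG was in 12.5% of the 64 matched members' promoters and 12% of all, and the MEF2 consensus in 1.56% and 2.96%. A match is not evidence that a factor binds.

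Other subunit forms followed the sets in another order. Ndufa4l2, a relative of the complex IV subunit Ndufa4 known to be induced by low oxygen, had 225, 711 and 741 in PLKO_CTR, 189.6, 495 and 663 in PLKO_TNF, 317, 859 and 698 in shTon_CTR and 340.4, 758 and 698 in shTon_TNF. In each group its lowest value was that of set 1 (adjusted p among sets = 3.73e-05 in limma). Ndufa4 had 1519, 1227 and 638 in PLKO_CTR, 1379, 1496 and 800.1 in PLKO_TNF, 1150.2, 1195 and 947 in shTon_CTR and 1041, 1221 and 1189 in shTon_TNF, lowest in set 3 of each group other than shTon_TNF, with an adjusted p of 0.0538 in limma. Cox4i2 was likewise lowest in set 1 of each group (adjusted p = 0.00214 in limma), and for Cox4i1 the value was 0.156.

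Cox7a2l, which takes part in joining complexes III and IV into supercomplexes, was highest in set 3 of each group. It had 2882, 2492 and 3750.3 in PLKO_CTR, 2604, 2461 and 3785 in PLKO_TNF, 2544, 2835 and 4433 in shTon_CTR and 2119, 2349 and 6008 in shTon_TNF, with an adjusted p among sets of 0.00311 in limma. Cox7a2, the broad form of subunit 7a, was low in the deposited tables, with 17.6, 17.4 and 15.6 in PLKO_CTR, 24.7, 22.4 and 10.1 in PLKO_TNF, 20.7, 13.2 and 13.0 in shTon_CTR and 4.3, 14.7 and 24.2 in shTon_TNF, and 4 to 40 reads a library. Cox6b2, the testis form of subunit 6b, had 15.1, 9.1 and 3.1 in PLKO_CTR, 18.5, 12.8 and 1.3 in PLKO_TNF, 19.8, 8.4 and 1.3 in shTon_CTR and 20.3, 13.7 and 0 in shTon_TNF, highest in set 1 and lowest in set 3 of each group (adjusted p = 0.000493 in limma) at 0 to 30 reads a library. Cox6b2 reached the mean filter only through set 1, so its call among sets is not independent of that filter. Its broad partner Cox6b1 had 261, 189 and 198 in PLKO_CTR, 220.4, 176 and 229 in PLKO_TNF, 199, 193 and 215 in shTon_CTR and 181, 210.1 and 280.1 in shTon_TNF, with an adjusted p of 0.4 in limma.

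**Figure D5:**
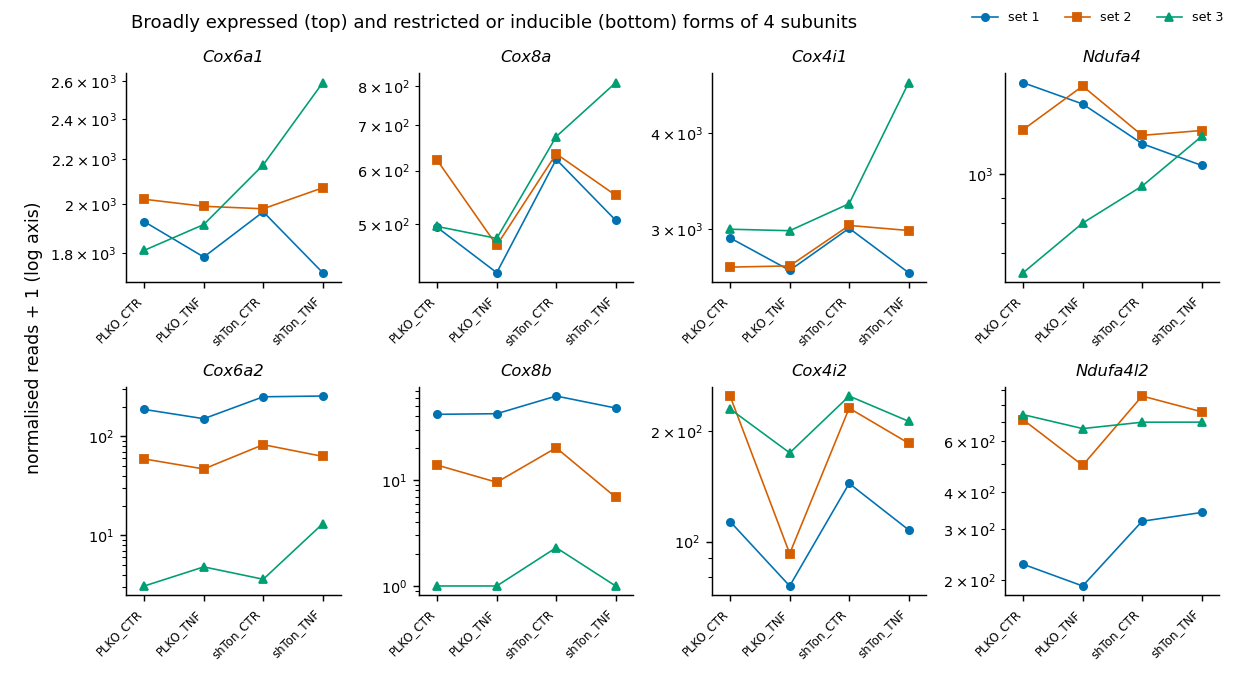
Normalised reads + 1 (y axis, log scale, its range set for each gene) of broadly expressed subunit forms (top row) and of the restricted or inducible form of the same subunit (bottom row), by group (x axis); each point is 1 library and lines join libraries of a set. Cox6a2 and Cox8b are highest in set 1 and lowest in set 3 of every group, and Cox4i2 and Ndufa4l2 are lowest in set 1.

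Genes that build or serve the chain were given as lists. Among 40 assembly factors, TNF-a raised 2 (5%) in PLKO cells in limma, near the 4.97% of all genes called higher. They were Ndufaf4 0.77 (adjusted p = 0.0341), a complex I assembly factor, and Surf1 0.79 (adjusted p = 0.0469), which acts in the assembly of complex IV. Ndufaf4 had 848, 348 and 310.0 in PLKO_CTR, 1037, 709 and 614 in PLKO_TNF, 558, 389 and 351 in shTon_CTR and 558, 542 and 541 in shTon_TNF. The treated library was higher in each set of PLKO cells, and across sets the groups overlapped. The median over the 40 was 0.10, with 30 higher by value.

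Among 24 genes for electron carriers, ubiquinone synthesis and adenine nucleotide exchange, TNF-a raised 3 in PLKO cells in limma, where 4.97% of all genes were called higher. Slc25a5, an exchanger of ADP and ATP across the inner membrane, had 977, 697 and 696 in PLKO_CTR, 1370.1, 1168 and 1561 in PLKO_TNF, 842, 746 and 976 in shTon_CTR and 1008, 1139 and 1361 in shTon_TNF, with every PLKO_TNF library above every PLKO_CTR library. Its log2 fold change was 0.80 (adjusted p = 0.0219) in limma. Vdac3, a channel of the outer membrane, differed by 0.53 (adjusted p = 0.0433) and Coq10b, a ubiquinone-binding protein, by 0.57 (adjusted p = 0.0481) in limma. Slc25a4, the muscle and heart form of the exchanger, differed by 0.03 (adjusted p = 0.874) in limma.

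The other lists held single calls with TNF-a in PLKO cells in limma, where 9.62% of all genes were called, 4.97% higher and 4.65% lower, and these counts show nothing particular to the lists. Of 19 genes of mitochondrial biogenesis and mitochondrial DNA expression, Mterfd1, of the mitochondrial transcription termination factor family, rose by 0.47 (adjusted p = 0.0421), and 17 of 19 were higher by value with a median of 0.26. Of 25 genes of the TCA cycle and pyruvate dehydrogenase, Pdk3, a kinase that inhibits pyruvate dehydrogenase, was lower, -0.51 (adjusted p = 0.0455). Of 9 genes of superoxide and peroxide defence, Gpx1, a glutathione peroxidase, was lower, -0.75 (adjusted p = 0.0112), at 1903, 1907 and 1738 in PLKO_CTR, 1271, 1104 and 938 in PLKO_TNF, 1775, 1959 and 1347 in shTon_CTR and 1387, 1560.1 and 1481 in shTon_TNF, with every PLKO_TNF library below every PLKO_CTR library. Sod2, the superoxide dismutase of the matrix, differed by 0.43 (adjusted p = 0.206) in limma. No gene of these 5 lists passed in limma for the knockdown with or without TNF-a, for TNF-a in shTon cells or for the interaction.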

How the data were processed

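Gene expression was measured by RNA-seq in 12 libraries. Per the submitters' processing notes, the tools named were Novoalign 2.08.01 and DESeq2, the latter without a version, and the build was rn5. The sources used here name no read counter, annotation, strand setting or rule for reads with several mapping positions. Each of the 3 tables that the authors deposited covers 2 groups and holds a normalised signal per gene and library, a log2 fold change and adjusted p-values, per the file headers. Each signal was a whole number of reads divided by 1 factor per library (100% of values whole within 0.01 read), so reads were recovered and joined over the 12899 genes common to the tables, with DESeq2 size factors; values per library in the text are on this joint scale. Every per-sample column had a sample. Identical libraries stand in 2 tables, so comparisons share them.

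The members and lists were chosen with earlier results of these data known. limma 3.58.1 was fitted on log2(value + 1), which understates changes of low genes, to genes with a mean of at least 10, with a mean-variance trend and the set as a term, two-sided, with Benjamini-Hochberg adjustment over all genes at 0.05. Each deposited pair was fitted on its own table's values, and TNF-a in shTon cells, the interaction and the difference among sets (F test with the group as a term) on the joint scale. SE is limma's moderated standard error. The set was kept as a term because DESeq2 with it and a fold-change prior came close to the authors' fold changes (median absolute difference 0.000452 in the first table). The numbers also pair the libraries: over the 18 pairs that share a set number across groups, deviations from the group means had correlations of 0.609 to 0.889, and over the 36 other pairs -0.741 to 0.18.

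Alternatives were no set term, a pseudocount of 0.1, no filter, no trend, edgeR 4.0.16 with TMM and DESeq2 1.42.0 on recovered reads, each set left out, and all 12 libraries in 1 fit. The scripts were tested on simulated data. Values in full are given for all mitochondrial members, both forms of each subunit with several forms, members that passed the test, the 3 largest changes in each comparison and the 5 nuclear members that differed most among sets; exceptions are said in the text. Of each list at most 5 genes are named.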

Additional observations from a re-analysis of the deposited data

Results flagged for a closer look

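In 4 nuclear members the knockdown went one way in every set without TNF-a and the opposite way in every set with it. That is 5.48% of 73, beside 1.15% of 12310 genes, and Atp5a1 counts only through a log2 ratio of -5.7e-05 in set 3 with TNF-a. Mean log2 ratios over the 3 sets were as follows for Ndufa11 (-0.09 without and 0.18 with TNF-a, a gap of 0.271), Ndufs1 (0.10 without and -0.13 with TNF-a, a gap of -0.233), Atp5s (0.12 without and -0.21 with TNF-a, a gap of -0.336) and Atp5a1 (0.01 without and -0.04 with TNF-a, a gap of -0.052). Ndufa11 and Ndufs1 are an accessory and a core subunit of complex I. The difference itself was not tested apart from the interaction fit in limma, in which the 4 genes had an adjusted p of 0.999 each. Set 1 with TNF-a holds the library whose Nfat5 level went against its label.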

How the results depend on the processing

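Calls depended on the set term, the trend and single sets. Without the replicate block 0 nuclear members passed with TNF-a in PLKO or shTon cells, and limma called 0, 0, 0 and 6 of all genes (TNF-a in PLKO, knockdown without and with TNF-a, TNF-a in shTon), where the fit with the block called 1190, 14, 31 and 405. With no trend the counts were 55, 0, 0 and 143, with 0 nuclear members. With a pseudocount of 0.1, 2 and 12 genes passed for the knockdown without and with TNF-a, and 0 nuclear members with TNF-a in shTon cells. edgeR called 1205, 18, 29 and 403 genes. DESeq2 called 399, 367 and 619 genes for the knockdown without and with TNF-a and TNF-a in shTon cells, with 1, 1 and 2 mitochondrial members (TNF-a in PLKO, knockdown with TNF-a, TNF-a in shTon) and 2 nuclear members in PLKO cells. With all 12 libraries in 1 fit, 696, 3 and 444 genes passed in the 3 deposited comparisons, with 2 nuclear members with TNF-a in PLKO cells and 1 mitochondrial member for the knockdown with TNF-a. Without each set in turn, all-gene counts spanned 545 to 1410, 12 to 283, 32 to 488 and 317 to 1105, mitochondrial members 0 to 1 (TNF-a in PLKO), 0 to 5 (knockdown with TNF-a) and 0 to 2 (TNF-a in shTon), and nuclear members 0 to 1 and 0 to 1 with TNF-a in PLKO and shTon cells. Without each group in turn, 3 to 10 mitochondrial members, 8 to 21 nuclear members and 3536 to 5473 genes differed among sets. Without set 3, Mt-nd2 with TNF-a in PLKO cells and Mt-co1 with TNF-a in shTon cells changed sign, over ranges of -0.34 to 0.25 and -0.23 to 0.24. Followed through all alternatives were the members called, the 3 largest changes in each comparison, Atp5g1, Cox4i2, Mt-nd2, Mt-co1, and the nuclear members that differed most among sets. Of their values, 295 kept direction and side of the threshold, 9 lost a call, 14 gained one and 2 changed sign. The other members are not in this count. Without set 1, 25 of 71 nuclear members changed sign with TNF-a in shTon cells, and 10 of 71 for the knockdown with TNF-a. The causes were not tested. With 3 libraries a group, the median SE of a mitochondrial member was 0.28 on the log2 scale for the knockdown with TNF-a, and differences of that size were not detectable. Much larger ones did not pass either: in limma Mt-nd2 at 1.61 had an adjusted p of 0.111 and Mt-nd4l at 1.21 had 0.178.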
